A study of Mus musculus with 4 samples.

Results

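The genes described here are 10 neuronal RNA-binding and splicing genes of 4 families, Celf3, Celf4, Celf5, Celf6, Elavl2, Elavl3, Elavl4, Srrm3, Srrm4 and Nova2. They were taken by name, all 10 were found in the gene annotation (GENCODE M21, mm10), and they stand among 21951 protein-coding genes. The data are ChIP-seq of Eya1 from mouse kidneys at E13.5, taken from Eya1 HA-FLAG knockin animals whose Eya1 protein carries HA and FLAG tags. The tagged allele was present in every sample, the mice were of a mixed strain background, and each assay pooled 80 kidneys, so that the cell type behind a peak cannot be told. The series has 2 Eya1 pull-downs with anti-FLAG beads (replicates 1 and 2), 1 input and 1 IgG control. A list of peak intervals was used for each Eya1 replicate, and the controls were not analysed here.

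Celf proteins (CUGBP and Elav-like family) bind GU-rich RNA and control splicing and mRNA turnover, and Celf3 to Celf6 are best known from brain. Elavl2, Elavl3 and Elavl4 are the neuronal Hu proteins, which bind AU-rich stretches of mRNA and stabilise them, whereas Elavl1 is found in most cells. Srrm4 (nSR100) and its relative Srrm3 promote the inclusion of neuronal microexons, and Nova2 is a neuronal splicing regulator that reads YCAY clusters. Many neuronal genes carry RE1, an element recognised by the zinc-finger repressor REST (NRSF), which silences them outside neurons. Srrm4 and REST are known to oppose each other, since Srrm4 promotes splicing of Rest to an isoform with little repressor activity and REST represses Srrm4. Eya1 is a coactivator that does not bind DNA by itself.

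Of the 10 genes, 7 had an Eya1-occupied site with RE1 in the gene body or within 1 kb of a transcription start site (TSS), namely Celf4, Celf5, Celf6, Elavl2, Srrm3, Srrm4 and Nova2. RE1 was counted on either strand of the peak when it matched the 17-bp consensus with at most 2 mismatches, the number in the Elavl2 match. Across all protein-coding genes 4.32% had such a site. Most of the sites in the listed genes were intronic and far from the promoter, while Celf6 and Srrm4 had RE1 in their first exons. Celf3 had a peak without RE1, Elavl3 had a peak only at a neighbouring gene, and Elavl4 had none within 50 kb.

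The elements near the midpoints of the replicate 2 peaks at these sites are shown first. They are read 5′ to 3′ on the strand that matches the consensus, with RE1 in capitals and 6 bases of mm10 on either side. They are given because the peak intervals carry no height, so that sequence and position are what the files offer for each site. The Celf4 elements are described by position only.
Celf5, intron 1, chr10:81477742-81477758, minus strand: acgcgcTTCAGCACCGCGGACAGcggcac
Celf6, exon 1 (coding), chr9:59578435-59578451, plus strand: ttggctTTCAGCACCGCGGACAGcggcgg
Srrm4, intron 1, chr5:116518255-116518271, minus strand: tcctggTTCAGCACCGCGGACAGtggctc
Srrm4, intron 1, chr5:116545922-116545938, plus strand: caggttTTCAGAACCATGGACAGcgcctg
Srrm4, intron 1, chr5:116554097-116554113, plus strand: agaactTTCAGCACCATGGAGAGcctccc
Srrm4, exon 1 (UTR), chr5:116591499-116591515, minus strand: ccacgtTTCAGCACTTCGGACAGcgcccc
Srrm3, intron 3, chr5:135843607-135843623, minus strand: cttgatTTCAGCACCACGGATAGctgccg
Nova2, intron 3, chr7:18951599-18951615, minus strand: agcctcTTCAGCACCAAGGACAGcagccg
Elavl2, intron 2, chr4:91379670-91379686, plus strand: tcagaaATTAGTACCATGGACAGagacca

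The first 3 of these elements were identical over all 17 bases, although they lie on 3 chromosomes and in an intron, a coding exon and another intron. That sequence occurred 24 times among the RE1 matches of mm10 and lay under a peak of either list at 20 of them (83.3%), and under peaks of both lists at 14. This count was made after the 3 elements were seen to be the same, and both the 24 and the 20 include them.

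The comparison of promoters asked at which of the genes Eya1 sat at the start of transcription. A peak lay within 1 kb of a TSS at 4 of the 10 genes in replicate 1 (Celf4, Celf6, Srrm3 and Srrm4), against 20.2% of all protein-coding genes. In replicate 2 it did so at 5, the same 4 and Celf3, against 14.7%. Either list gave 5 of 10 against 23.5%, and both lists gave 4 of 10 against 11.5%. In the gene body a peak of either list was found at 8 of 10 genes, all but Elavl3 and Elavl4, against 23.9%. Within 50 kb of the gene, 9 of 10 had a peak, against 48.5% of all genes. With only the wider part of each list (peaks that reach its median width), a promoter peak remained at 2 of the genes and a peak in the body at 3. No share over all genes was taken for these wider peaks, so these 2 counts cannot be set against one.

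For sites with RE1 the counts stood farther from those of all genes. In replicate 1, 6 of 10 genes had an RE1 peak in the gene body or within 1 kb of a TSS (Celf4, Celf5, Celf6, Elavl2, Srrm4 and Nova2), against 3.48% of protein-coding genes. In replicate 2 there were 7, with Srrm3 added, against 2.00%. The same 6 genes had one in both lists, against 1.15% of protein-coding genes. Long genes hold more sequence, so the share was also taken over the 12321 protein-coding genes at least as long as the shortest of the 10 (Celf3, 13.9 kb), and was 5.63% there. This floor does not match the genes for length, since those with an RE1 peak were 23.5 kb (Celf5) to 277 kb (Celf4) long. Within 50 kb an RE1 peak of either list lay at 8 of 10 genes, against 12.2%. With at most 1 mismatch, 6 genes had an RE1 peak in the body or near a TSS, all of the 7 but Elavl2. With no mismatch allowed 4 genes had one (Celf5, Celf6, Srrm4 and Nova2), and with only the wider peaks 3 did. The share of all genes was not taken at these settings. These genes were named with earlier results of the same libraries known, so the counts are descriptive and no test was run on them.

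**Figure D1:**
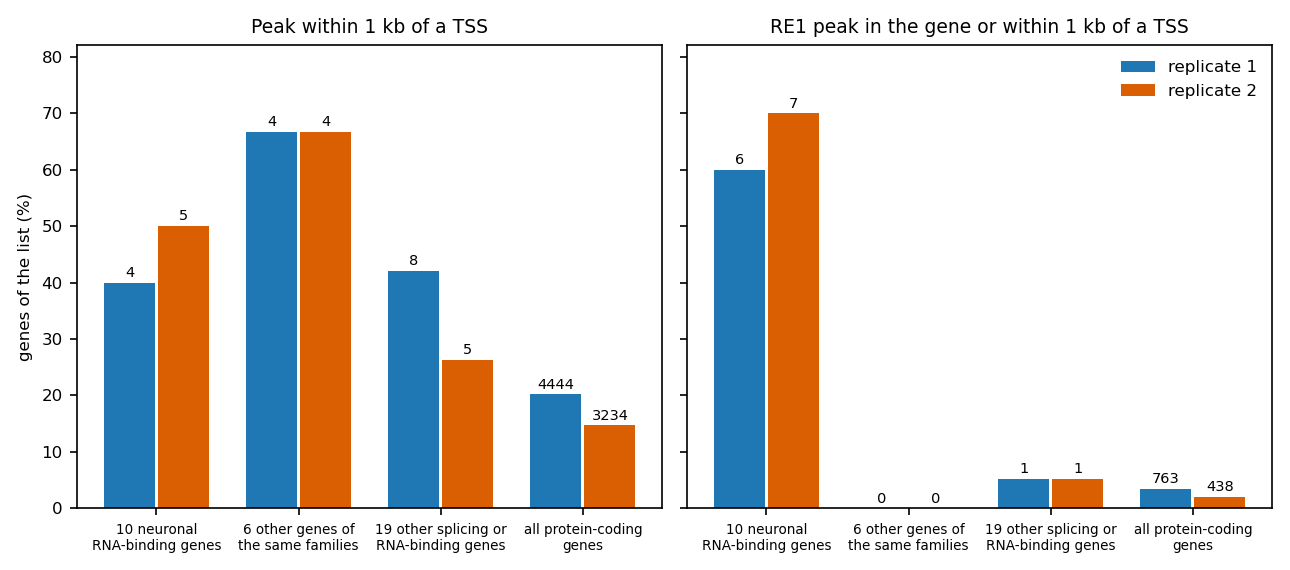
Share of genes (vertical axis, %) with a peak within 1 kb of a TSS (left) and with an RE1 peak in the gene body or within 1 kb of a TSS (right), for 4 gene lists in replicate 1 (blue) and replicate 2 (orange), with the number of genes above each bar. The 10 neuronal genes stand at 6 and 7 genes with an RE1 peak, and the 6 other genes of the same families at 0, with a promoter peak at 4 of those 6 in each list. Nova1 is in both the list of 6 and the list of 19.

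Of the remaining 6 genes of the 4 families, Celf1, Elavl1, Srrm1 and Srrm2 had a promoter peak without RE1 in both lists, where 11.5% of all genes had a promoter peak, and Celf2 and Nova1 had no peak within 50 kb. An RE1 peak within 50 kb was found at 0 of the 6, a count too small to be told from the 12.2% of all genes. In a list of 19 splicing or RNA-binding regulators, of which Nova1 is also one of those 6, 8 had a promoter peak in either list, against 23.5% of all genes. In that list 1 gene had an RE1 peak in the gene or near a TSS, Rbfox3, a share (5.26%) close to the 4.32% of all genes. Rbfox3 encodes the neuronal nuclear antigen NeuN. It had 2 peaks of replicate 1 and 4 of replicate 2 in its introns, of which 2 and 3 held RE1, and no peak within 1 kb of a TSS. The site 325 kb from its TSS, in intron 4, held 4 RE1 matches in both lists.

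**Figure D2:**
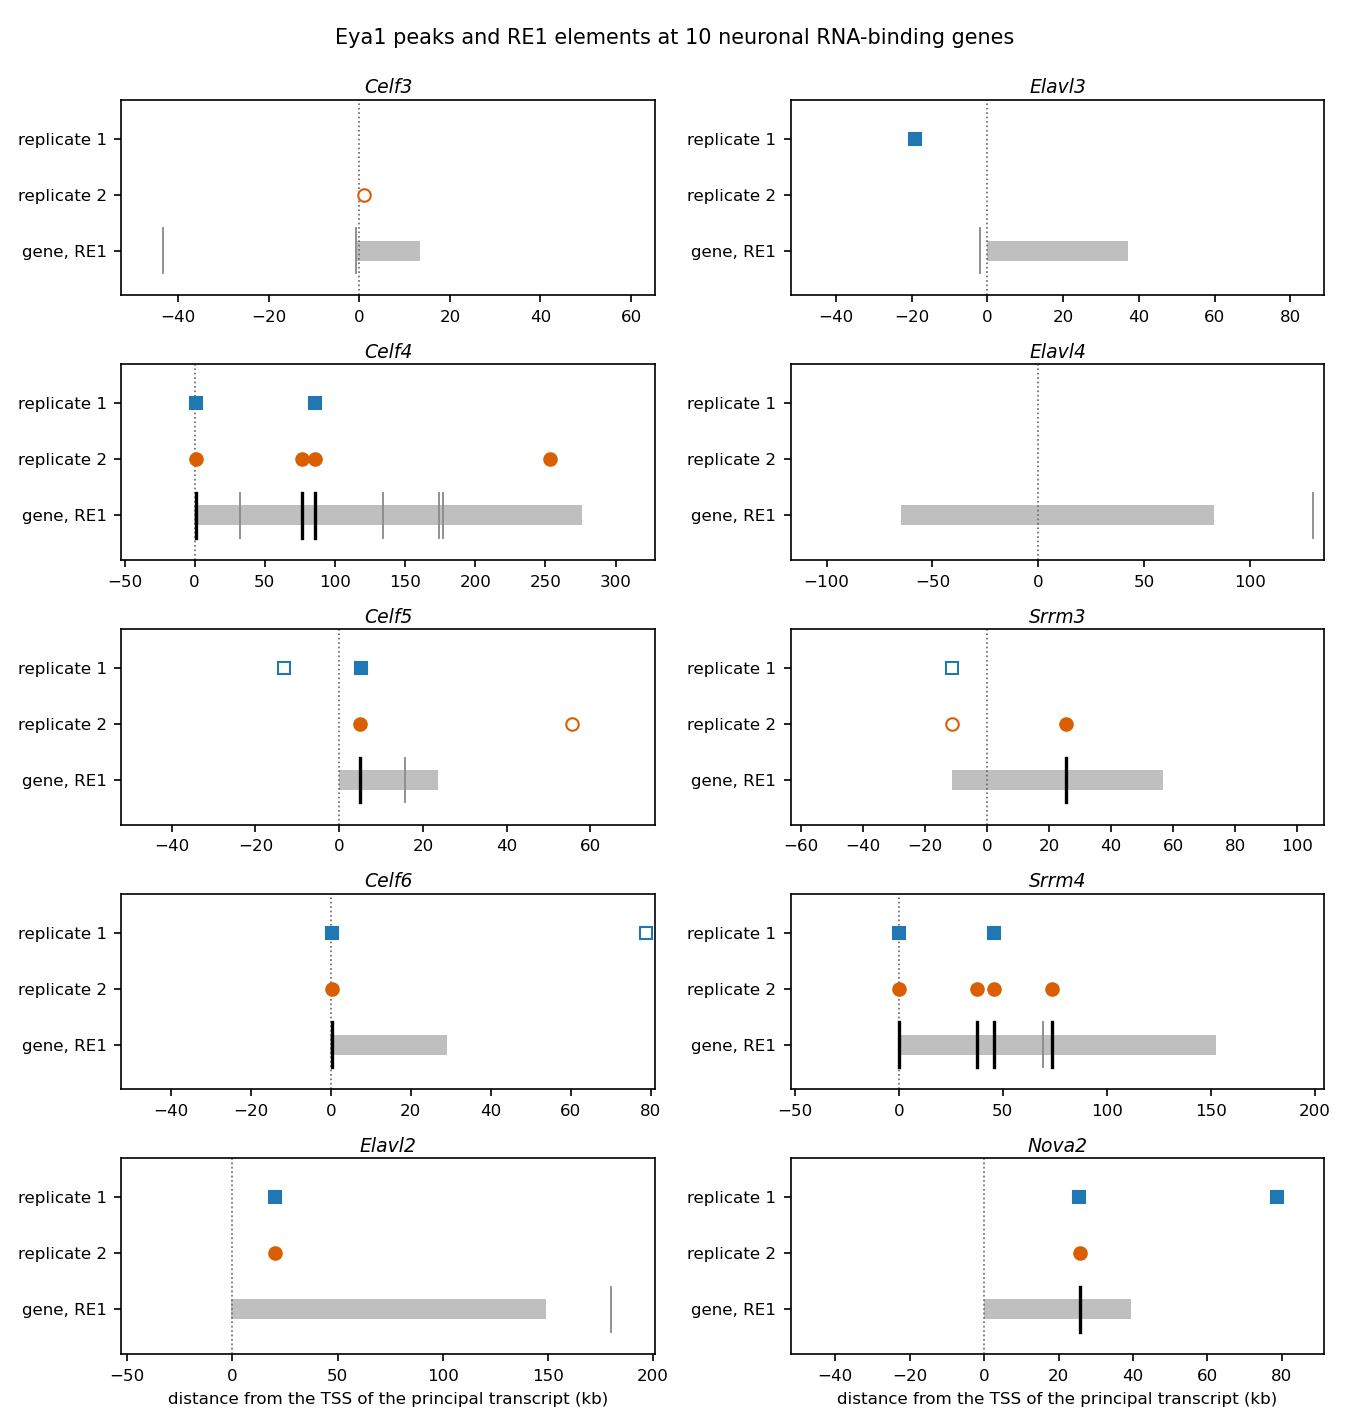
Maps of the 10 genes. The horizontal axis is the distance in kb from the TSS of the principal transcript in the direction of transcription, the grey bar is the gene, squares (replicate 1, blue) and circles (replicate 2, orange) are peak midpoints, filled where the peak holds RE1, and ticks are RE1 elements with at most 1 mismatch, black under a peak and grey elsewhere. Celf4 and Srrm4 have 4 peaks each in replicate 2 and 2 in replicate 1, and Elavl4 has none.

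Srrm4, the microexon splicing activator, had 3 exact RE1 elements under a peak, more than any other of the 10 genes. In replicate 2 it had 4 peaks, at 0.275, 37.7, 45.9 and 73.6 kb from its TSS, with widths of 190, 117, 134 and 124 bp. Replicate 1 listed the first and the third of these sites, as peaks of 802 bp and 330 bp. The 3 intronic elements matched the consensus without a mismatch, and the element in the first exon had 1, at position 9. Each of the 4 elements lay within 34.5 bp of the midpoint of its replicate 2 peak. The sites at 37.7 kb and 73.6 kb were in replicate 2 alone.

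The promoter peak of Srrm4 covered the first exon, and its RE1 lay in the untranslated part, 310 bp into the gene and in the direction of transcription. The replicate 2 peak there was 65.3% G+C with 7.37 CpG per 100 bp. The intronic peaks of replicate 2 were poorer in CpG, at 1.49 to 1.71 per 100 bp and 54.5% to 56.5% G+C. The intronic site found in replicate 2 alone nearest to the promoter is printed whole, with RE1 in capitals, since its 117 bp is the smallest width in that list.
Srrm4, chr5:116554038-116554154, plus strand: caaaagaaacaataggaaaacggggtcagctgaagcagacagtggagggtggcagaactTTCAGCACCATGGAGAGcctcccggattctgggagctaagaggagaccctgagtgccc

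Srrm3, the related splicing activator, differed in that its promoter peak had no RE1. Peaks of 430 bp in replicate 1 and 158 bp in replicate 2 covered the 5′ end of the gene, which is the start of transcripts other than the principal one and lies 11.2 kb upstream of the TSS of the latter. The best match to RE1 in the replicate 2 peak had 4 mismatches. It held 1 copy of the right half-site GGACAGC, read on the minus strand and ending 4 bases before the gene. The right half-site was present in 17.9% of replicate 2 peaks and 31.2% of replicate 1 peaks. The 99 bases of the replicate 2 peak that lie upstream of the gene are printed with the half-site in capitals, because this was the promoter site in both lists without RE1.
Srrm3, chr5:135806791-135806889, plus strand: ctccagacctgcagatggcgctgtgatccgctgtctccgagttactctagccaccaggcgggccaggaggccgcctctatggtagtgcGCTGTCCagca

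The other Srrm3 site was intronic and in replicate 2 alone, 156 bp wide and 25.5 kb from the principal TSS. Its RE1 had 1 mismatch, at position 15, and lay 14.5 bp from the midpoint, in the orientation opposite to the gene. This single site accounts for the difference between 6 and 7 genes in the lists of replicates 1 and 2.

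Celf4, which regulates mRNAs for synaptic function, had 4 peaks in replicate 2 and 2 in replicate 1. The site next to the TSS was 885 bp wide in replicate 1 and 186 bp in replicate 2, with 1 RE1 of 1 mismatch in intron 1 at 1.05 kb, and the wide peak also reached exon 1. A second shared site, 85.7 kb into the gene in intron 2, was 1083 bp and 368 bp wide and held 4 RE1 matches. All 4 had the orientation of the gene and were spaced 42 to 45 bp from start to start. Each had a mismatch at position 1 and 3 of them another at position 17. The sites at 76.3 kb (135 bp, intron 2) and 253 kb (200 bp, intron 8) were in replicate 2 alone. Introns are those of the principal transcript, and the site at 76.3 kb overlapped an exon of 1 other Celf4 transcript. The site at 253 kb lay 502 bp from the TSS of another Celf4 transcript, and its RE1 had 2 mismatches.

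Celf5 and Celf6 had 1 site each, in both lists, on the element they share with Srrm4. In Celf5 it was intronic, 4.97 kb from the TSS by the midpoint of the 175-bp replicate 2 peak, which lay inside a replicate 1 peak of 1107 bp. In Celf6 it lay in the coding part of exon 1, 252 bp from the TSS. The Celf6 peaks were 718 bp and 182 bp wide and overlapped a TSS. The surroundings differed, with 13.7 CpG per 100 bp and 3 GC boxes (GGGCGG) in the replicate 2 peak of Celf6, against 5.14 and none in that of Celf5. The Celf5 peak is printed whole to show the element in its intronic setting.
Celf5, chr10:81477655-81477829, plus strand: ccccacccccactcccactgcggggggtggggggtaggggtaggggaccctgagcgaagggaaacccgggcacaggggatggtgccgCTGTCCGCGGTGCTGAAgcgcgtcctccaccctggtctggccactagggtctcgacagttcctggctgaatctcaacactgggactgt

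Celf3 stood apart from Celf4, Celf5 and Celf6. Its single peak, 127 bp in replicate 2 alone, lay in intron 1 at 0.936 kb from the principal TSS, within 1 kb of a TSS of Riiad1 as well, and which gene it belongs to cannot be told. It held no RE1 and no half-site, and 1 ETS core (CCGGAAG), a motif found in 5.77% of replicate 2 peaks. An RE1 with 1 mismatch lay 0.81 kb upstream of the principal TSS, under no peak.

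Nova2 had 1 site in both lists, in intron 3 at 25.7 kb from its TSS, 769 bp wide in replicate 1 and 164 bp in replicate 2. The exact element lay 80 bp from the midpoint of the wide peak and 8.5 bp from that of the narrow one, opposite to the gene. The replicate 1 peak held another match, with 2 mismatches, 354 bp from its midpoint and outside the replicate 2 peak. The replicate 2 peak is printed whole, as an example of an RE1 near the middle of a narrow intronic peak.
Nova2, chr7:18951517-18951680, plus strand: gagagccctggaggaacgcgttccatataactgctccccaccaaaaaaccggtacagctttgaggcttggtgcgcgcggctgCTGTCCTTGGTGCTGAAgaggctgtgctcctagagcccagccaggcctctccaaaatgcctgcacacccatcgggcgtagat

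The 3 Elavl genes gave little occupancy. Elavl2 had 1 site in intron 2, 20.3 kb from the principal TSS and, in replicate 1, 3107 bp from the nearest TSS. It was 218 bp wide in replicate 1 and 117 bp in replicate 2, the smallest width of the latter list. The 218-bp peak was among the narrowest of its list, in which 0.678% of peaks were narrower. Its RE1 had 2 mismatches, at positions 1 and 6. The Elavl3 gene had no peak, and the peak counted for it within 50 kb, of 732 bp in replicate 1 alone, lay at TSSs of Zfp653, Gm16845 and Gm49318. The RE1 match in that peak had 2 mismatches and lay 245.5 bp from the midpoint. Elavl4 had no peak within 50 kb in either list, and its only RE1 with at most 1 mismatch in that range lay downstream of the gene, 130 kb from the principal TSS.

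Elavl3 had the only exact RE1 element near the 10 genes that was under no peak. It lay 1868 bp upstream of the principal TSS and is shown beside the Celf3 element that was also unoccupied, with RE1 in capitals and 6 bases on either side.
Elavl3, upstream, chr9:22053870-22053886, plus strand: caaggcTTCAGCACCACAGACAGcggtct
Celf3, upstream, chr3:94478012-94478028, plus strand: tcctctTCCAGCACCGGGGACAGctccaa

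Base differences are given from the most frequent base of the 19 elements under a peak at these loci, with positions counted from 1 at the 5′ end of the element and leaving out positions 10 and 11, at which the consensus allows any base. The Elavl3 element differed by G12A, a base that the consensus allows, and the Celf3 element by T2C. The 19 elements carried the same base at 4 positions (5, 8, 12 and 16), so that none of them had the base of the Elavl3 element at position 12. Whether the base at position 12 bears on occupancy was not tested. The occupied elements of Srrm4 differed by C6A (45.9 kb), C15G (37.7 kb) and C9T (first exon), that of Srrm3 by C15T, and that of Elavl2 by T1A, C3T and C6T.

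Taken over all elements within 50 kb of the 10 genes, the share under a peak was lower with more mismatches. Exact elements were under a peak of either list at 6 of 7, against 30.6% of the 708 in the genome. With 1 mismatch 5 of 16 were under a peak, against 2.67% of 12998. With 2 mismatches 8 of 162 were, against 0.434% of 174636. Together 11 of the 23 elements with at most 1 mismatch were occupied, all of them inside genes. Replicate 2 covered all 11 and replicate 1 covered 7.

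**Figure D3:**
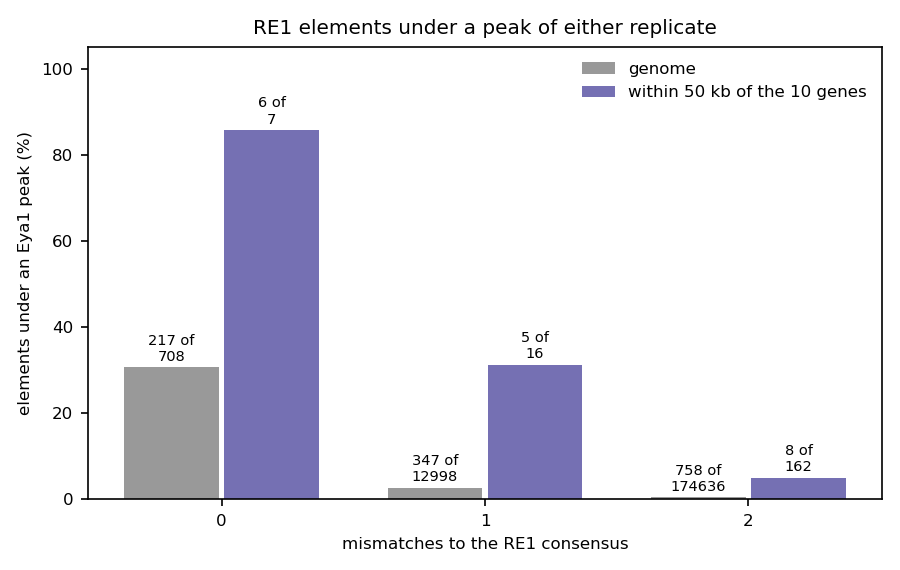
Share of RE1 elements under a peak of either replicate (vertical axis, %) by the number of mismatches to the consensus (horizontal axis), in the genome (grey) and within 50 kb of the 10 genes (purple), with counts above the bars. Both series fall with mismatches, from 30.6% to 0.434% in the genome and from 6 of 7 to 8 of 162 elements at the listed genes.

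Of the elements with 1 mismatch, the 5 occupied ones had it at positions 1 (both in Celf4), 9, 15 and 17. The 11 others had it at position 8 in 4 cases, at position 2 in 3, at position 15 in 2, and once each at 5 and 13. Position 15 thus occurred in both groups, and with so few elements no difference was tested. Orientation was mixed, with 12 of the 19 occupied elements in the direction of the gene and 7 opposite. Pairs of the 19 elements shared 8 to 17 of 17 bases, with a median of 13. The 19 include the 4 neighbouring matches of 1 Celf4 site, so they are not independent. They also include 2-mismatch matches covered by replicate 1 alone, 245.5 bp (Elavl3), 354 bp and 635 bp (both Nova2) from the peak midpoint. At this cutoff 9.47% of the windows flanking replicate 1 peaks held a match as well.

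In the gene bodies or within 1 kb of a TSS, replicate 1 had 9 peaks of 218 to 1107 bp with a median of 769 bp, against 1069 bp in the whole list and 1083 bp over its RE1 peaks. Replicate 2 had 15 peaks of 117 to 368 bp with a median of 158 bp, against 188 bp in the whole list and 170 bp over its RE1 peaks. The narrower side of the list median held 7 of the 9 and 12 of the 15. RE1 lay 6 to 35.5 bp from the midpoint in 13 replicate 2 peaks, with a median slightly farther out than the 11.5 bp over all RE1 peaks of the list. In 8 replicate 1 peaks it lay 33.5 to 234 bp from the midpoint with a median of 81.25 bp, against 175.5 bp over the list.

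**Figure D4:**
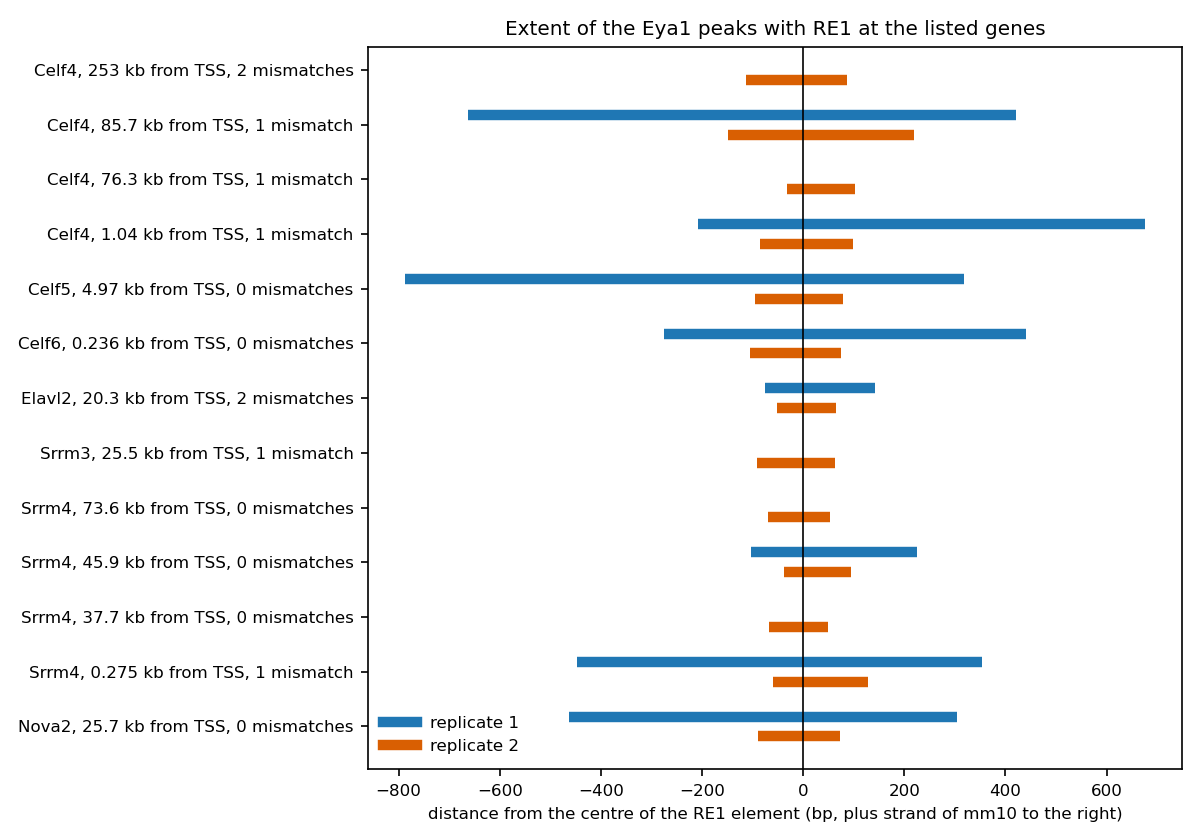
Extent of the RE1 peaks at the 10 genes in bp from the centre of the best RE1 element (horizontal axis, plus strand to the right), one row per site, labelled with gene, distance from the principal TSS and mismatches, for replicate 1 (blue) and replicate 2 (orange). Every replicate 2 bar covers the element within 35.5 bp of its midpoint, and the 8 replicate 1 bars enclose the replicate 2 bar of the same site.

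The peaks of both lists merged into 15 intervals at the 10 genes, of which 9 were covered by both lists, 6 by replicate 2 alone and 0 by replicate 1 alone. Over the whole genome 44.1% of 5493 merged intervals were covered by both. All 9 shared replicate 2 peaks lay inside the replicate 1 peak. Of the 15 intervals, 13 held RE1. Within 1 kb of a TSS 4 of 6 did, against 13.8% of all 4844 such intervals. Farther than 1 kb from any TSS 9 of 9 did, and there RE1 was common throughout, at 73.8% of all 649 such intervals. Sites near a TSS with RE1, as at Celf4, Celf6 and Srrm4, were in the minority among promoter intervals.

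GC boxes were less frequent in these peaks than in their lists, and the other motifs searched gave shares on either side of those of the lists. GC boxes (GGGCGG, either strand) were in 5 of 9 replicate 1 peaks and 2 of 15 replicate 2 peaks, against 89.2% and 47.8% of the lists. The ZFX core (AGGCCT) was in 4 of 9 and 1 of 15, against 42.4% and 15.7%, and the ETS core in 1 of 9 and 1 of 15, against 29.9% and 5.77%. The median G+C content was 56% and 56.5%, against 62.8% and 68.6%. The lists were not matched to these peaks for place or width. Of the merged intervals at these genes, 9 of 15 lay farther than 1 kb from any TSS, against 649 of 5493 over the whole genome. Median widths were 769 bp and 158 bp, against 1069 bp and 188 bp in the lists. Whether place or width accounts for these differences was not tested.

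Outside the genes but within 50 kb, 5 more peaks were listed, each in 1 list only and each within 1 kb of a TSS of another gene. Beside the peak near Elavl3 these were, for Celf5, a replicate 1 peak of 1019 bp at Ncln and a replicate 2 peak of 117 bp at Nfic. For Celf6 there was a replicate 1 peak of 1915 bp at Pkm, and for Nova2 a replicate 1 peak of 1345 bp at Irf2bp1. The peak at Irf2bp1 held an RE1 match of 2 mismatches, 635 bp from its midpoint, and those at Ncln, Nfic and Pkm held none.

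Genes were also ordered by the number of intervals in the body that hold RE1 with at most 1 mismatch and are covered by both lists. Camta1 came first with 3, and 7 genes had 2, among them Celf4 and Srrm4 together with Cacna1a, Cacng2 and Fam155a. Celf5, Celf6 and Nova2 were among the 143 genes with 1. In replicate 2 alone, Srrm4 was among 3 protein-coding genes with 4 such peaks in the body and Celf4 among 5 with 3.

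As for the series as a whole, the lists held similar numbers of peaks, and covered 5013 kb in replicate 1 and 1026 kb in replicate 2. RE1 was in 17.5% of replicate 1 peaks and 17.4% of replicate 2 peaks, and in 9.47% and 1.88% of flanking windows of the same widths 1 kb away. The lists give no depth, height or score, so the peaks cannot be ranked and the absence of a peak at Elavl4 means that none was listed.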

How the data were processed

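Eya1 ChIP-seq peaks of 2 replicates were used. According to the methods, the authors aligned reads to mm10 with Bowtie and used MACS, with several P cutoffs, to find peaks over input or IgG, keeping those common to both. The deposited lists give chromosome, start and end only, and which cutoff and control each used is not given in the sources used here. Whether they hold only the peaks common to both controls is not given either. The submitters' processing notes name HISAT2 and mm10. Peak starts were printed 1-based. Gene models were from GENCODE M21, read with a GRCm38 genome in which 0 peaks exceeded a chromosome end. RE1 was searched in whole peaks on both strands with at most 2 mismatches over 17 bp, of which 15 positions are informative. Peaks were counted in the gene body, within 1 kb of any TSS of the gene and within 50 kb, and overlap meant at least 1 bp. The principal transcript was chosen from the annotation's tags. Scripts ran in Python 3.11.15 with numpy 2.4.6 and were tested on simulated data. The genes named are the 10 listed, the 6 other genes of their families, any of the 19 comparison regulators with an RE1 peak, genes whose TSS lies within 1 kb of a counted peak, and at most 5 genes with the most shared RE1 intervals, ties in alphabetical order. Genes at RE1 arrays were named after their values were seen. Members and lists were chosen with earlier results of these data known. No condition was compared, since both lists belong to 1 group, and no test was run. The replicates are separate samples in the labels, and nothing says whether they came from separate litters. Alternatives covered each replicate alone, distances, mismatches, windows and width.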

Additional observations from a re-analysis of the deposited data

How the results depend on the processing

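Of 52 alternative values for 9 results, 39 stayed within 1.5 times the reported count or 1 SD of the reported width, and 13 did not. With only the peaks that reached the median width of their own list, the number of the 10 genes with a promoter peak was 2, with a peak in the body 3, with a peak within 50 kb 5, with an RE1 peak within 50 kb 4 and with an RE1 peak in the body or at a TSS 3, and 1 interval was covered by both lists. With no mismatch allowed, 4 genes had an RE1 peak in the body or at a TSS and 4 within 50 kb. For these width and mismatch settings no share over all genes was taken. Asking for 50% of both peaks to be covered left 1 shared interval, as follows from the wider peaks of replicate 1. Elements under a peak numbered 7 in both lists, 19 with at most 2 mismatches and 6 with none. Leaving out a replicate gave 7 to 11 elements (7 without replicate 2) and 4 to 5 genes with a promoter peak. It gave 7 to 8 genes with a peak in the body and 8 within 50 kb. An RE1 peak lay within 50 kb at 7 genes and in the body or at a TSS at 6 to 7. Over all protein-coding genes, 20.4% had a peak in the body in replicate 1 and 14.5% in replicate 2. Within 50 kb the shares were 43.1% and 36.1%, and for an RE1 peak within 50 kb 9.62% and 6.43%. A 200-bp window on the peak midpoint kept the count of genes with an RE1 peak in the body or at a TSS at 7. No paired analysis was possible because the replicates form 1 group. Depth is unknown, and the lists hold no signal from input or IgG.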

Other observations

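The 4 closely spaced RE1 matches in intron 2 of Celf4 and in intron 4 of Rbfox3 led to a search for like arrays, which was chosen after those values were seen. With at least 4 matches of at most 2 mismatches and steps of at most 100 bp, mm10 held 104 arrays, and 9 of them lay under peaks of both lists, in Celf4, Rbfox3, Cacng2, Camta1 (3 arrays), Tas1r3, Vrk3 and a locus shared by Gm20715 and Smim17. No other array was under a peak of either list. The search allowed steps shorter than the 17-bp element, and many of the 104 were overlapping matches with steps of 6 bp. The arrays of Celf4 and Rbfox3 had steps of 42 to 45 bp and 35 to 71 bp, so the 104 are not all of their kind.

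The left part of RE1 in its commonest form, TTCAGCACC, was examined in the same way after the elements were seen. It was present in the occupied elements of Celf5, Celf6 and Srrm3. Of the occupied elements of Srrm4 2 had it, of those of Nova2 1 and of those of Celf4 1. The exact Elavl3 element under no peak also had these letters. Among exact RE1 elements of the genome, 189 of 344 with these letters were under a peak (54.9%), against 28 of 364 with other permitted letters there (7.69%). With 1 mismatch the shares were 5.81% of 602 and 2.52% of 12396. At the 10 genes the exact elements with them were under a peak at 5 of 6, and the single one without them, in Srrm4, was too. Elements with 1 mismatch were under a peak at 2 of 2 with them and 3 of 14 without.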
